A study of Mus musculus with 4 samples.

Results

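Killer cell lectin-like receptor genes were followed across 4 RNA-seq libraries of mouse cells, 8 in all, namely Klrd1, Klrc1, Klrc2, Klrk1, Klri2, Klra3, Klrb1c and Klrg1. They are 8 of the 30 genes of this family among the 50686 gene identifiers counted, and they were selected on their counts across genotype and stimulation in these same libraries. Those values are therefore a description, without a test. The cells came from spleen and lymph node and the RNA from cell culture. Cells of 2 genotypes, WT and Yap KO, were either left unstimulated or stimulated, with 1 library for each of the 4 combinations. Yap KO is the genotype of the labels, a loss of the transcriptional coactivator encoded by Yap1. The deleted part, any Cre driver, the strain, the age, the cell type and the stimulus are not stated in the labels. Titles of the stimulated libraries carry the number 24 without a unit, and all titles carry the replicate number 1. No value has a replicate, genotype cannot be told apart from cell source, and state cannot be told apart from time in culture.

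Killer cell lectin-like receptors are C-type lectin-like proteins on natural killer (NK) cells and on subsets of T cells, CD8 memory T cells among them. Some carry inhibitory motifs in their cytoplasmic tail and damp activation when they meet MHC class I molecules. Others pair with the adaptor proteins DAP12 (gene Tyrobp) or DAP10 (Hcst) and activate the cell. Klrd1 encodes CD94, which pairs with NKG2A (Klrc1, inhibitory) or NKG2C (Klrc2, activating) to bind the nonclassical MHC molecule Qa-1. Klrk1 encodes NKG2D, an activating receptor for stress-induced ligands.

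Reads assigned to genes numbered 19935523 to 25419974 per library. Values are given as reads and as CPM, the depth-scaled count after TMM scaling of the libraries, and 3 reads, taken as the floor for a count of 0, stand for 0.115 to 0.155 CPM. Intervals are exact 95% intervals that cover counting error only. The labels name no cell type. The CD8 genes Cd8a and Cd8b1 summed to 2150 CPM (WT) and 2295 CPM (Yap KO) before stimulation, and to 605 and 521 CPM after it. The 10 T cell markers together stood at 3018 to 5917 CPM.

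All 8 genes lie on mouse chromosome 6 (GRCm38, GENCODE M21), and 6 of them lie within a short stretch of it. Along the chromosome, Klrg1 comes first, from 122270596 to 122282882, and Klrb1c follows, from 128778485 to 128789215. Klrd1 lies from 129591782 to 129598775 and is the only member on the plus strand. Beyond it come Klrk1 (129610323 to 129623864), Klrc2 (129647496 to 129660689) and Klrc1 (129666015 to 129678973). Klri2 (129729041 to 129740484) and Klra3 (130323289 to 130337574) end the row. The counts of each gene cover its exons. None of the 8 has exon bases opposite another gene, so reads from exons of an opposite gene would not be counted for them. The strand setting is not stated, and its effect on the number of reads counted was not tested. Entries assigned to no gene feature made up 48.3 to 52.5% of all entries.

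Several of these genes are near copies of a neighbour, and the files list reads that align in more than 1 place apart, at 3.48 to 4.31% of all entries. Of the 31-base words in Klrc1 transcripts, 53.1% also occur in another gene, 49.6% in Klrc2 alone. The share was 43.5% for Klra3, most often with Klra9, 21.6% for Klrc2, 21.2% for Klrb1c and 7.6% for Klri2. For Klrd1, Klrk1 and Klrg1 it was 0.0%. Levels of Klrc1 and Klra3 beside those of other genes are uncertain for this reason.

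Klrd1, the shared CD94 chain, had the highest level of the 8 in unstimulated cells and the same level there in both genotypes within counting error. Its reads numbered 3690 (WT) and 4192 (Yap KO) before stimulation and 226 (WT) and 297 (Yap KO) after it. In the same order these were 161 (156 to 166), 161 (157 to 166), 11.1 (9.67 to 12.6) and 15.4 (13.7 to 17.2) CPM. The unstimulated ratio of Yap KO over WT was 1.00 (0.958 to 1.05) and the stimulated ratio 1.39 (1.17 to 1.66). Stimulated cells had 14.6-fold (12.7 to 16.7) less Klrd1 in WT and 10.5-fold (9.32 to 11.8) less in Yap KO. Both stimulated libraries lay far below both unstimulated ones. In bulk RNA of this kind, fewer cells that carry a transcript and less transcript per cell cannot be told apart.

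Klrc1, the inhibitory NKG2A chain, differed far more by genotype than by state. Its reads numbered 276 (WT) and 1713 (Yap KO) before stimulation and 195 (WT) and 1141 (Yap KO) after it, or 12.0, 65.9, 9.55 and 59.1 CPM. Yap KO cells had 5.47-fold (4.82 to 6.24) more before stimulation and 6.19-fold (5.31 to 7.24) more after it. The stimulated level was 0.793 times (0.656 to 0.956) the unstimulated one in WT and 0.896 times (0.831 to 0.967) in Yap KO. Both Yap KO libraries were above both WT libraries.

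Klrc2, the activating NKG2C chain, differed by both genotype and state. Its reads numbered 27 (WT) and 199 (Yap KO) before stimulation and 5 (WT) and 35 (Yap KO) after it, or 1.18, 7.66, 0.245 and 1.81 CPM. Yap KO exceeded WT 6.50-fold (4.34 to 10.1) in unstimulated cells and 7.41-fold (2.89 to 24.2) in stimulated cells. Stimulated cells had 4.81-fold (1.83 to 16.0) less in WT and 4.23-fold (2.94 to 6.24) less in Yap KO. The WT unstimulated and Yap KO stimulated libraries had overlapping intervals, at 0.776 to 1.71 and 1.26 to 2.52 CPM, and lay between the others.

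The ratio of Klrc1 to its partner chain Klrd1 differed in all 4 libraries. Per kilobase of exon, Klrc1 stood at 0.0483 (0.0426 to 0.0546) of the Klrd1 level in WT and at 0.264 (0.249 to 0.279) in Yap KO before stimulation. After it the ratio was 0.557 (0.458 to 0.678) in WT and 2.48 (2.18 to 2.83) in Yap KO. On that scale Klrc1 lay above Klrd1 in stimulated Yap KO cells and below it in the other 3 libraries. When exon bases that another gene shares were left out of the length, with all reads kept, the direction in stimulated WT cells turned. Klrc1 then stood at 10.3 and Klrd1 at 8.64 CPM per kilobase. Reads on the shared bases were still counted, so the order of Klrc1 and Klrd1 there was not settled. Klrc1 also exceeded Klrc2 per kilobase in every library, by 29.9-fold (20.1 to 46.3) and 25.2-fold (21.8 to 29.4) in WT and Yap KO before stimulation, and by 114-fold (48.1 to 356) and 95.5-fold (68.3 to 138) after it. These folds also depend on the shared bases. With these bases left out of the length and all reads kept, Klrc1 stood at 12.9 and 70.9 CPM per kilobase in unstimulated WT and Yap KO. Klrc2 stood at 0.259 and 1.68 there. In stimulated WT and Yap KO, the values were 10.3 and 63.5 for Klrc1 and 0.0537 and 0.398 for Klrc2, so that every fold was over 1.5 times the one above.

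Sequences before the start site are shown for the 3 neighbouring genes Klrc1, Klrc2 and Klrk1, which were all at least 2-fold higher in unstimulated Yap KO cells. RefSeq held this window for 5 of the 8 members (GRCm38.p6), and the starts used here are those of RefSeq. The windows are the 250 bases before the start at chr6:129678974-129679223 for Klrc1, chr6:129660597-129660846 for Klrc2 (the start farthest upstream of 2) and chr6:129623865-129624114 for Klrk1, all on the minus strand and written 5′ to 3′. Capitals mark the RUNX core TGTGGT or its reverse complement ACCACA, a motif of transcription factors active in CD8 T cells and NK cells.
Klrc1: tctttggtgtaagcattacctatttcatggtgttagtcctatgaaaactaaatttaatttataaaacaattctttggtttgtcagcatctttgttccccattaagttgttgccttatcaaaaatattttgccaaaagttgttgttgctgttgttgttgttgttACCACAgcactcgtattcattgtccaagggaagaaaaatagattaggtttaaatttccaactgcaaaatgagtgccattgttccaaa
Klrc2: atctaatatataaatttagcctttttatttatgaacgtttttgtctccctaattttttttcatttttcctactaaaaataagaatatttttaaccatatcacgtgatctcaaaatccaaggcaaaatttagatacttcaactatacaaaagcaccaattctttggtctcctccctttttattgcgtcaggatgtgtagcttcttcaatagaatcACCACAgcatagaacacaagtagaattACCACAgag
Klrk1: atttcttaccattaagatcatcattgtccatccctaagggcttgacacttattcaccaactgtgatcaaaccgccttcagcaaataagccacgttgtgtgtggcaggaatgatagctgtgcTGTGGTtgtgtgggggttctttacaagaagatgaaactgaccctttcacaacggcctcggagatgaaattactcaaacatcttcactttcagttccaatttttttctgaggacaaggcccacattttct
The RUNX core stood once in the windows of Klrc1 (87 bases before the start) and Klrk1 (129 bases), 2 times in that of Klrc2 (36 and 9 bases) and once in that of Klrb1c (89 bases). It was absent from that of Klra3. Among the 23 family windows held, those of Klrc3, Klre1, Klrb1a and Klra1, which are not members, also carried the RUNX core. Klrb1a and Klra1 had 0 reads in all 4 libraries. Of all 32851 promoter windows of 250 bases, 14.0% held the RUNX core on either strand. The T-box core TCACAC, or GTGTGA on the other strand, stood in none of the 5 windows and in 12.3% of all of them. RefSeq starts differ from the GENCODE M21 gene models for some members. By those models Klrc2 reaches 129660689, so both of its cores lie inside that gene span. The Klrb1c window (128788642 to 128788891) lies wholly inside the Klrb1c span. These matches describe letters only.

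**Figure D1:**
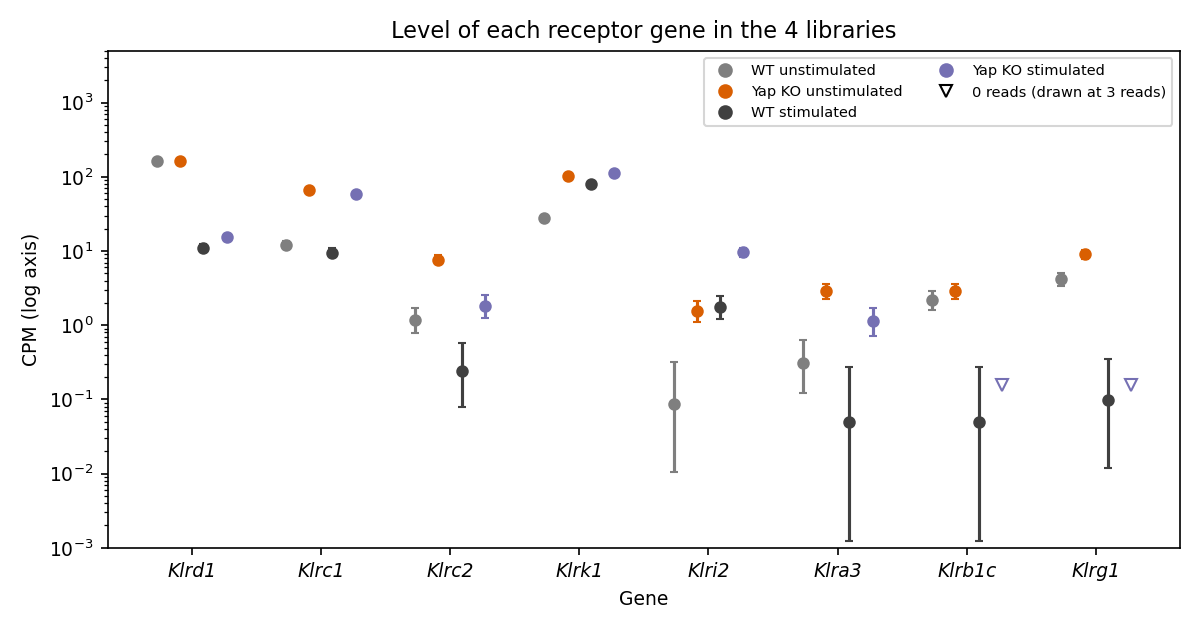
CPM of the 8 receptor genes (log axis) in the 4 libraries, with exact 95% Poisson intervals. Open triangles mark counts of 0, drawn at 3 reads. Klrd1 drops from 161 CPM in both unstimulated libraries to 11.1 and 15.4 CPM, Klrc1 stays apart by genotype in both states, and Klrk1 has its lowest point, 28.2 CPM, in WT unstimulated cells.

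Klrk1, the NKG2D gene, was lowest in WT unstimulated cells and less spread over the other 3 libraries. Its reads numbered 646 (WT) and 2637 (Yap KO) before stimulation and 1630 (WT) and 2152 (Yap KO) after it, or 28.2 (26.1 to 30.5), 102 (97.7 to 105), 79.8 (76.0 to 83.8) and 111 (107 to 116) CPM. Yap KO cells had 3.60-fold (3.30 to 3.93) more before stimulation and 1.40-fold (1.31 to 1.49) more after it. The stimulated level was 2.83 times (2.58 to 3.11) the unstimulated one in WT and 1.10 times (1.04 to 1.16) in Yap KO. The log2 response of Yap KO minus that of WT was -1.36 (-1.52 to -1.21).

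Klri2 encodes a receptor that pairs with the product of Klre1. It was the member with the highest ratio of stimulated to unstimulated cells. Its reads numbered 2 (WT) and 40 (Yap KO) before stimulation and 36 (WT) and 186 (Yap KO) after it, or 0.0873, 1.54, 1.76 and 9.63 CPM. Yap KO exceeded WT 17.6-fold (4.57 to 151) before and 5.47-fold (3.81 to 8.04) after stimulation. Stimulated cells had 20.2-fold (5.20 to 173) more in WT and 6.26-fold (4.43 to 9.04) more in Yap KO. The Yap KO unstimulated and WT stimulated libraries overlapped, with the WT unstimulated library below and the Yap KO stimulated library above them.

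Klra3 encodes Ly49C, an inhibitory receptor for classical MHC class I. Its reads numbered 7 (WT) and 74 (Yap KO) before stimulation and 1 (WT) and 22 (Yap KO) after it, or 0.305, 2.85, 0.049 and 1.14 CPM. The Yap KO libraries lay above the WT library of the same state, by 9.32-fold (4.31 to 24.0) and 23.3-fold (3.76 to 961), the latter against a single read. Stimulated cells had 2.50-fold (1.54 to 4.23) less in Yap KO, while the WT ratio of 0.160 (0.00356 to 1.25) was not resolved at this depth. Klra9, its closest copy by shared words, had 89, 78, 8 and 9 reads in the same order, with an unstimulated ratio of Yap KO over WT of 0.773 (0.563 to 1.06).

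Klrb1c, the NK1.1 antigen of NK cells, and Klrg1, a receptor for cadherins on effector T cells and NK cells, were read almost only in unstimulated cells. Reads of Klrb1c numbered 50 (WT) and 75 (Yap KO) before stimulation and 1 (WT) and 0 (Yap KO) after it. Its unstimulated ratio of Yap KO over WT was 1.32 (0.913 to 1.93). Klrb1c stood 44.6-fold (7.64 to 1795) lower in stimulated WT cells. In stimulated Yap KO cells it stood 18.6-fold lower with 0 reads set to the floor of 3, and the exact interval began at 14.7-fold. A further gene model, Gm44511, shares 13.9% of its exon bases on the same strand.

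Reads of Klrg1 numbered 96 (WT) and 234 (Yap KO) before stimulation and 2 (WT) and 0 (Yap KO) after it, or 4.19 and 9.01 CPM unstimulated. Yap KO exceeded WT 2.15-fold (1.69 to 2.76) before stimulation. Klrg1 stood 42.8-fold (11.5 to 358) lower in stimulated WT cells. In stimulated Yap KO cells it stood 58.0-fold lower with 0 reads set to the floor, and the exact interval began at 46.8-fold. For neither gene was a genotype ratio formed in stimulated cells, since both counts lay at or under the floor.

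Across the 8 members, 6 were at least 2-fold higher in unstimulated Yap KO than WT cells with an interval that excluded no difference, all but Klrd1 and Klrb1c. Of all 15394 genes tested, 4.37% passed this rule. In stimulated cells 4 passed, Klrc1, Klrc2, Klri2 and Klra3, against 3.24% of all genes. These 4 passed in both states, against 0.994% of all genes. No member was 2-fold lower in Yap KO in either state, where 3.53% and 4.67% of all genes were, and 0.922% in both. The median log2 ratio was 2.14 over the 8 members unstimulated and 1.44 over the 8 members stimulated, beside 0.03 and 0.00 over all genes tested. Over the 6 members above the floor in stimulated cells, without Klrg1 and Klrb1c, it was 2.45. Since members were named with these contrasts known, nothing is read from the shares.

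By state, 4 members were at least 2-fold lower in stimulated WT cells (Klrd1, Klrc2, Klrg1 and Klrb1c), against 24.5% of all genes, and the same 4 with Klra3 in stimulated Yap KO cells, against 25.6%. Klrk1 and Klri2 were at least 2-fold higher in stimulated WT cells, against 23.7%, and Klri2 alone in stimulated Yap KO cells, against 22.7%. In both genotypes, 4 were lower, against 20.4%, and 1 was higher, against 19.5%. The log2 response of Yap KO minus that of WT was 0.47 (0.21 to 0.73) for Klrd1. Klrk1 and Klrd1 were the only members whose interval of this difference excluded 0. For Klrc1, at 0.17 (-0.11 to 0.46), and for Klrc2, Klri2, Klra3, Klrg1 and Klrb1c the interval of this difference held 0. None of the 8 had stimulation ratios of opposite sign in the genotypes with both intervals excluding no change, as 1.87% of all genes did. No test of the differences between single libraries was possible.

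**Figure D2:**
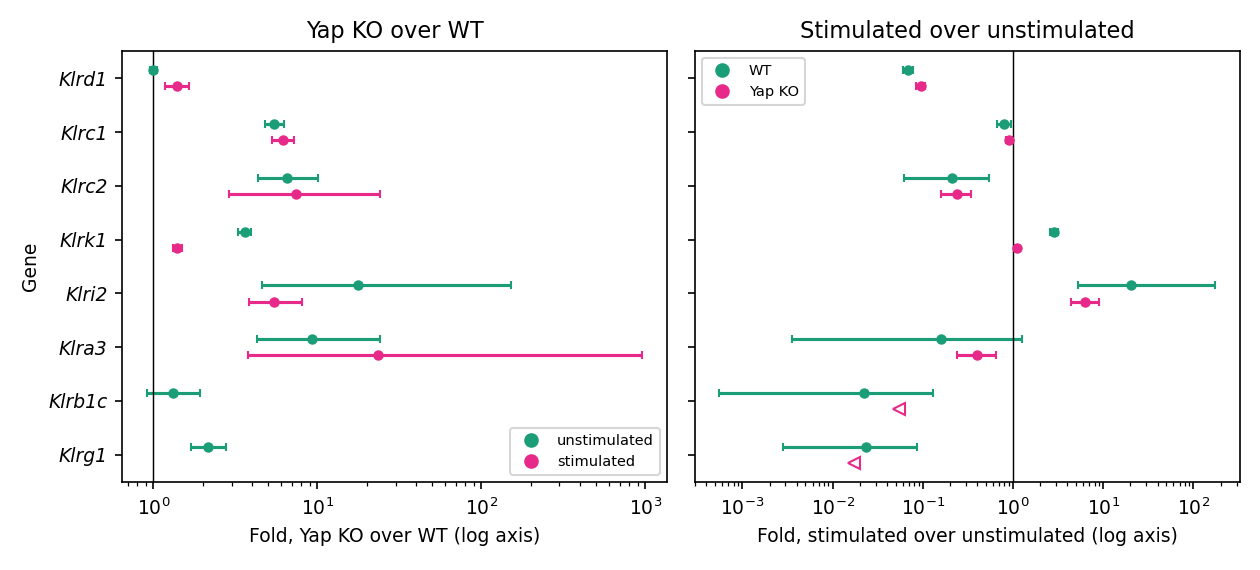
Fold (log axis) of each receptor gene for Yap KO over WT, left, and for stimulated over unstimulated cells, right, with exact 95% intervals of counting error. Open triangles point to lower folds and mark folds where a count of 0 was set to 3 reads. No point is drawn where both counts were 3 or less. Klrc1, Klrc2, Klri2 and Klra3 lie right of 1 in both states on the left, and Klrk1 moves from 3.60 to 1.40.

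Levels of genes that mark other cells also differed between the libraries, and their part in the results above was not tested. Of 10 NK cell markers, 7 were at least 2-fold higher in unstimulated Yap KO cells and none in stimulated ones, against 4.37% and 3.24% of all genes tested. The sums of the NK cell markers were 45.9, 101, 537 and 543 CPM in the order above, of which Irf8 alone made up 533 and 539 CPM in stimulated cells. With stimulation, 7 of the 10 were at least 2-fold lower in WT and 8 in Yap KO, against 24.5% and 25.6% of all genes tested. Klre1, itself a gene of the receptor family, is on this list. Ncr1, the NK receptor NKp46, had 2, 15, 0 and 1 reads. Of the list, Ncr1, Itga2 and Itgam were at 0 in stimulated WT cells, and Itga2 and Itgam in stimulated Yap KO cells.

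Of 10 memory CD8 T cell markers, 8 were at least 2-fold higher in unstimulated and 5 in stimulated Yap KO cells, against the same 4.37% and 3.24%. The sums of these markers were 2048, 4255, 1293 and 1746 CPM. Of 8 gamma-delta T cell markers, 5 and 3 were higher, with sums of 310, 566, 25.0 and 44.2 CPM. All 8 were at least 2-fold lower after stimulation in both genotypes, against 20.4% of all genes tested. Trdc, the delta constant gene, stood at 232 and 351 CPM before stimulation. Of 7 macrophage and dendritic cell markers, 3 were higher in unstimulated and 2 in stimulated Yap KO cells, with sums of 46.7, 93.0, 22.1 and 37.8 CPM. Of 6 B cell markers, 2 and 3 were higher, with sums of 1177, 1142, 428 and 384 CPM. The 2 CD8 genes were not 2-fold apart between genotypes in either state. Nor did any of 3 CD4 T cell or 4 invariant NKT cell markers pass the 2-fold rule. Of 10 T cell markers, 1 was lower in stimulated Yap KO cells. Of 7 markers of group 2 innate lymphoid cells, 1 was lower in unstimulated and 1 higher in stimulated Yap KO cells. Of 7 markers of other cells, such as Hbb-bs and S100a8, 3 were lower in unstimulated Yap KO cells, against 3.53% of all genes tested, and 0 higher.

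Counts of the whole family of 30 genes summed to 227 CPM (WT) and 391 CPM (Yap KO) before stimulation and 106 CPM (WT) and 202 CPM (Yap KO) after it. The 8 members held 92.3% (91.5 to 93.0), 90.2% (89.6 to 90.8), 97.2% (96.4 to 97.9) and 98.2% (97.7 to 98.6) of these reads, in the same order. Such shares depend on gene length and on shared sequence, but not on the scaling of libraries. Klrd1 held 71.0% (69.8 to 72.3) of the family's reads in WT and 41.3% (40.3 to 42.2) in Yap KO before stimulation, and 10.5% (9.22 to 11.9) and 7.61% (6.79 to 8.48) after it. In the same order, Klrk1 held 12.4%, 26.0%, 75.6% and 55.1%, and Klrc1 held 5.31%, 16.9%, 9.04% and 29.2%. The leading gene was therefore Klrd1 in both unstimulated and Klrk1 in both stimulated libraries.

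**Figure D3:**
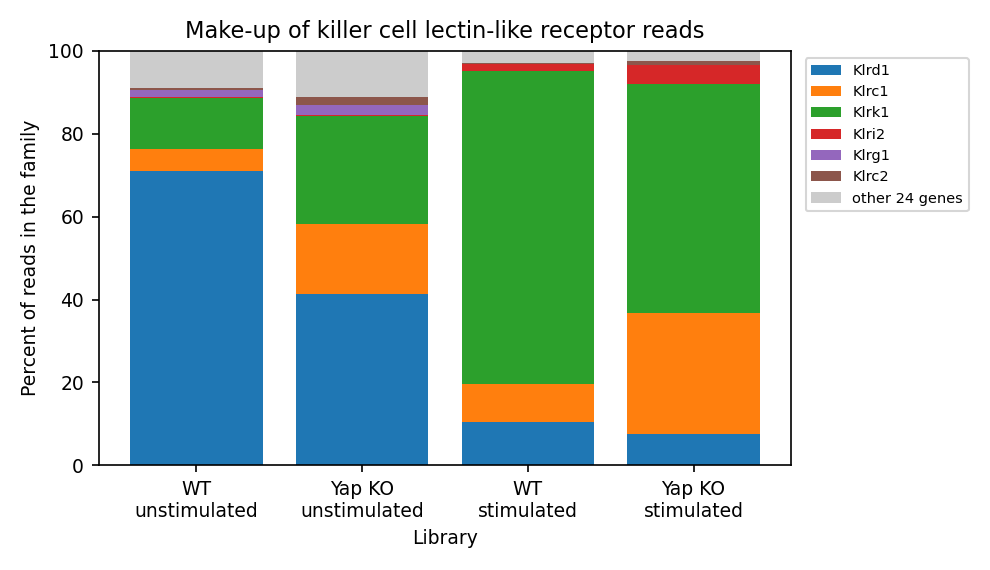
Percent of all reads in the 30 family genes held by 6 members and by the other 24 genes together, 1 bar per library. Klrd1 fills 71.0% and 41.3% of the unstimulated bars, and Klrk1 75.6% and 55.1% of the stimulated ones.

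Per kilobase of exon the order of the 3 leading genes differed from that by reads in 3 libraries and was the same in stimulated WT cells. In unstimulated cells Klrd1 stood at 126 CPM per kilobase in both genotypes, with Klrc1 next at 6.07 in WT and 33.2 in Yap KO, and Klrk1 at 3.92 and 14.1. In stimulated cells Klrk1 (11.1), Klrd1 (8.64) and Klrc1 (4.81) led in WT, and Klrc1 (29.8), Klrk1 (15.5) and Klrd1 (12.0) in Yap KO. With shared exon bases left out of the length and all reads kept, Klrc1 in stimulated WT cells lay between Klrd1 and Klrk1.

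Among the other 22 family genes, 9 had at least 10 reads in some library. The list of these genes had 20 of its 21 entries matched to an identifier. Only 4 of them passed the filter on low counts, and all 4 fell with stimulation in the additive edgeR fit, where 64.6% of all genes tested were called, 32.1% rising and 32.5% falling. The p-values of this fit, for stimulation and for genotype alike, rest on 1 residual degree of freedom, with the other factor in place of replicates, so they run too low for any statement on animals. Klre1, which pairs with the products of Klri1 and Klri2, fell by 2.34 ± 0.41 on the log2 scale (SE, adjusted p = 0.00072), with 75, 350, 24 and 31 reads. By genotype, Klre1 fell 2.79-fold (1.74 to 4.61) in WT and 8.39-fold (5.8 to 12.5) in Yap KO. Its log2 response of Yap KO minus that of WT was -1.59 (-2.41 to -0.76). Klrb1f fell by 3.31 ± 0.43 (adjusted p = 8.58e-05) and Klra9 by 2.98 ± 0.50 (adjusted p = 0.000501). The pseudogene Klra13-ps went from 81 and 253 reads to 0 in both stimulated libraries. With 0 reads set to the floor it was 24.1-fold lower in WT and 62.7-fold lower in Yap KO. The exact intervals began at 19.1-fold and 50.6-fold.

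The genotype term of that fit called 0 of the 4, with 2 higher and 0 lower at an unadjusted p under 0.05 and 0 by DESeq2. At that unadjusted threshold 838 of all 15394 genes tested were higher and 708 lower. In unstimulated cells Klre1 was 4.12-fold (3.20 to 5.36) higher in Yap KO and Klra13-ps 2.76-fold (2.14 to 3.58). Klra8, the activating Ly49H, had 2 and 62 unstimulated reads, 27.3-fold (7.26 to 231) apart, and Klra14-ps, with which it shares 33.4% of its words, 5 and 26. Klrc3, a further NKG2 chain, had 0 and 15 unstimulated reads. Its ratio of Yap KO over WT was 4.41 with 0 reads set to the floor, and the exact interval began at 3.16. Klrb1f, at 1.11 (0.855 to 1.43), and Klra4 and Klra7, at 7 and 15 and at 10 and 18 reads, were not resolved. Klri2 and its partner Klre1 thus stood on opposite sides of stimulation, while both were higher in Yap KO unstimulated cells.

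The adaptors and proximal signalling genes mostly fell with stimulation, 16 of 25 falling and 5 rising in edgeR's quasi-likelihood test. Of all genes tested, 32.5% fell and 32.1% rose. Median log2 ratios of the list were -0.57 in WT and -0.78 in Yap KO, beside -0.02 and -0.05 over all genes. Hcst, the DAP10 adaptor through which NKG2D signals, fell by 4.22 ± 0.16 (adjusted p = 4.04e-08), from 101 and 108 CPM to 5.83 and 5.39 CPM. Per kilobase, Klrk1 stood at 0.0281 (0.0257 to 0.0307) of the Hcst level in WT and 0.0942 (0.0893 to 0.0994) in Yap KO before stimulation, and at 1.38 (1.14 to 1.67) and 2.08 (1.71 to 2.56) after it. Fyb, an adaptor of T cell receptor and integrin signalling, fell by 3.33 ± 0.16, and Tyrobp, the DAP12 adaptor, by 2.48 ± 0.64 (adjusted p = 0.00682).

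The 5 that rose were Sh2d1a, an adaptor of SLAM receptors with 26.6% of exon bases opposite Tenm1 (1.63 ± 0.14), Vav2 (1.53 ± 0.21), Plcg2 (1.12 ± 0.17), Ptpn11 and Sh2d2a. No gene of this list was called by genotype in edgeR, with 1 higher and 0 lower at an unadjusted p under 0.05 and 0 in DESeq2. Over all 15394 genes tested, the unadjusted counts were 838 higher and 708 lower. Tyrobp had 27, 105, 9 and 7 reads, so that the unstimulated Yap KO library was 3.43-fold (2.23 to 5.45) above WT and the stimulated ratio, 0.823 (0.260 to 2.48), was not resolved. With stimulation Tyrobp fell 2.67-fold (1.22 to 6.46) in WT and 11.1-fold (5.22 to 28.4) in Yap KO. Its log2 response of Yap KO minus that of WT was -1.93 (-3.35 to -0.52).

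Of the ligand genes, 23 of 28 matched an identifier and 14 were tested. Of these, 13 fell with stimulation and 1 rose, against 32.5% and 32.1% of all genes tested. The gene that rose was Ulbp1, an NKG2D ligand, by 2.90 ± 0.27 (adjusted p = 9.64e-06), from 11.2 and 8.74 CPM to 53.1 and 102 CPM. H2-K1, a classical MHC class I ligand of Ly49 receptors with 22.8% of its words shared with other genes, fell by 1.72 ± 0.13. Clec2i, a ligand of the Klrb1 family, fell by 2.72 ± 0.15, and Cdh1, the E-cadherin ligand of Klrg1, fell by 6.69 ± 0.46. Median log2 ratios of the list were -1.20 in WT and -1.58 in Yap KO.

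The genotype term called 1 ligand higher and 1 lower, where 0.695% and 0.487% of all genes were called. Cdh1, with 76, 509, 1 and 3 reads, was higher in Yap KO (2.50 ± 0.37, adjusted p = 0.0136). Its unstimulated ratio of Yap KO over WT was 5.91 (4.63 to 7.62). Both stimulated counts lay at or under the floor, so no stimulated ratio was formed. H60b, a further NKG2D ligand, was lower (-3.50 ± 0.47, adjusted p = 0.00766), at 13.9 and 2.00 CPM unstimulated and 6.90 and 0.155 CPM stimulated. Klrk1 and H60b thus differed between genotypes in opposite directions, Klrk1 being the higher in Yap KO.

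Of 14 tested receptors that NK and CD8 T cells share, 4 rose with stimulation and 6 fell, against 32.1% and 32.5% of all genes tested. Tigit, an inhibitory receptor, rose by 4.80 ± 0.20 (adjusted p = 6.7e-08), Slamf7, an activating receptor of NK cells, by 1.96 ± 0.30 and Crtam, an adhesion receptor, by 1.03 ± 0.19, with Lilrb4a the fourth. Each fitted rise is a single value for both genotypes. Stimulated over unstimulated ratios in WT and Yap KO were 6.81 and 2.31 for Slamf7, and 1.52 and 2.74 for Crtam. For Tigit they were 26.4 and 29.3. Cd7 fell by 8.31 ± 0.26, the collagen receptor Lair1 by 3.70 ± 0.20 and the nectin family receptor Cd96 by 2.87 ± 0.13. Il18rap, a chain of the interleukin 18 receptor, was the 1 gene called by genotype, 1.61 ± 0.14 higher in Yap KO (adjusted p = 0.000754), at 47.7, 144, 7.05 and 21.8 CPM.

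Among 22 tested transcription factors of NK and memory CD8 T cells, 7 rose with stimulation and 13 fell. Of all genes tested, 32.1% rose and 32.5% fell. Zbtb32 rose by 8.89 ± 0.19, Bhlhe40 by 4.82 ± 0.16 and Nfil3, which NK cell development needs, by 3.19 ± 0.25, whereas Klf2 fell by 5.60 ± 0.19, Gata3 fell by 3.18 ± 0.24 and Ets1 fell by 3.07 ± 0.16. Every one of these 6 had an adjusted p of 2.81e-06 or less. By genotype 0 were called in edgeR and in DESeq2, with 5 higher and 2 lower at an unadjusted p under 0.05 in edgeR. Of all 15394 genes tested, 838 were higher and 708 lower at that unadjusted threshold.

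**Figure D4:**
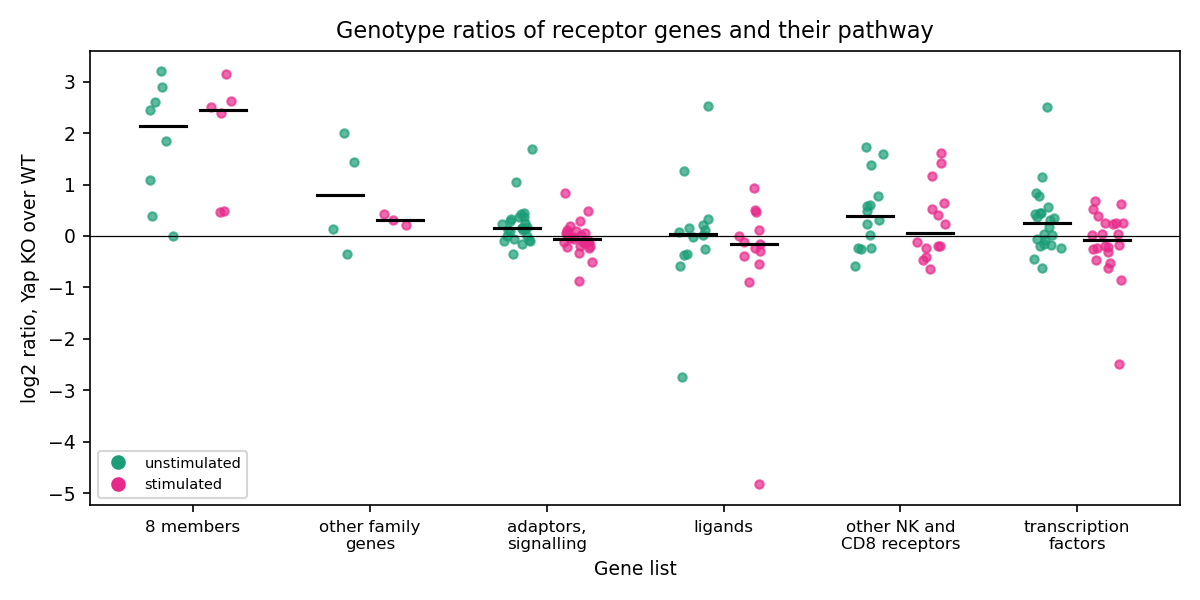
log2 ratios of Yap KO over WT (prior count 2) for each tested gene of the 8 members and 5 pathway lists, in unstimulated and stimulated cells. Bars are medians and genes with at most 3 reads in both libraries are left out. The medians of the members drawn are 2.14 (8 genes) and 2.45 (6 genes), and the medians of the adaptor list are 0.15 and -0.06.

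For each member, the 3 genes nearest in pattern were found among 9181 genes averaging at least 10 CPM, by Euclidean distance of centred log2 CPM over the 4 libraries. Klrd1 was nearest to Smad7, Lair1 and Rab11fip4, at distances of 0.15 to 0.17 log2 units. Klrk1 was nearest to Zfp296 (0.19), Gsto1 (0.43) and Axl (0.48), and Klrb1c to Apol7e (0.20), Itgb7 (0.23) and Rasgrp2 (0.34). Klrc2 was nearest to Lrrk1 (0.27), a kinase gene with 10.8, 54.7, 2.59 and 12.8 CPM, followed by the chemokine receptor gene Cxcr3 (0.69) and Tmem176b (0.83).

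The first match of each other member lay farther away, at 0.55 or more. Among the nearest were Gm10093 (0.65) and Paip1 (0.88) for Klrc1, and Lrrk1 (1.00) and Tmem176b (1.27) for Klra3. The nearest to Klrg1 were Pglyrp1 (0.55), Tlr12 (0.63) and Fcgrt (0.67), and to Klri2 Gm20743 (1.15), the chemokine gene Xcl1 (1.28) and Plek (1.38). A low distance over 4 libraries describes these libraries only.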

How the data were processed

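The 4 mouse libraries, 1 for each genotype and state, were measured by bulk RNA-seq. The authors deposited raw read counts per Ensembl gene identifier, with no normalization, and 5 summary entries per library, which were left out. Reads in genes made up 35.6 to 39.7% of all entries. Per the submitters' processing notes, reads were placed on mm9. No label states the aligner, annotation release or strand setting. Of 50686 identifiers 50376 matched a symbol. Gene models are from GENCODE M21 (GRCm38), a later build than mm9, so exon lengths and coordinates are those of that annotation.

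Low counts were removed (filterByExpr of edgeR, grouped by state, minimum count 10), leaving 15394 genes, all 8 members among them, and libraries were scaled by TMM. The edgeR 4.0.16 quasi-likelihood test, on an additive model of genotype plus state with Benjamini-Hochberg adjustment at 0.05, was run on all genes and read only for genes that are not members. The fit has 1 residual degree of freedom and 8.45 prior degrees of freedom. It was run on simulated counts of fixed spread with changes by state only, so the genotype term was not tested in that way. DESeq2 1.42.0, other scalings, filters and fold rules were alternatives. Single-library ratios carry exact 95% conditional binomial intervals (Clopper-Pearson), single counts exact Poisson intervals, and differences of responses a normal-theory interval. For log2 ratios, a prior count of 2 was added.

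The members and lists were chosen with earlier results of these data known. The text names all members, other family genes with at least 10 reads, up to 3 genes rising, falling or differing by genotype in both states per further list, and the 3 nearest genes per member, of which 1 gene is not reported here.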

Additional observations from a re-analysis of the deposited data

Results flagged for a closer look

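Il2rb, the beta chain of the interleukin 2 and interleukin 15 receptor, was chosen after its values were seen. It went opposite ways with stimulation in the 2 genotypes, from 254 to 397 CPM in WT and from 837 to 345 CPM in Yap KO. The log2 response of Yap KO minus that of WT was -1.92, with an interval of counting error from -1.99 to -1.86. With 1 library per group the difference was not tested. Of all genes tested, 1.87% had stimulation ratios of opposite sign whose intervals excluded no change in both genotypes.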

How the results depend on the processing

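Counts of 3 reads or fewer set the limit for Klrg1, Klrb1c and Klra3 in stimulated cells. No paired analysis was possible because the groups share only the replicate number 1. No group has a second library, so none was left out. All 30 log2 ratios of members above the floor, under a prior count of 0.5 and under both other scalings, and all 8 response differences kept within their intervals.

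With the fold rule at 4, 1 member and not 2 was higher in stimulated WT cells, Klri2. At that rule 4 members and not 6 were higher in unstimulated Yap KO than WT cells, without Klrk1 and Klrg1. In Yap KO, 4 members and not 5 were lower with stimulation, without Klra3. The other counts of members were the same under every rule and scaling run. Without genes that lie opposite another gene, 11 and not 17 pathway genes rose with stimulation, with 59 and not 79 tested. Over all genes, 3119 rose and 3173 fell there against 4936 and 5002, and 60 and 39 against 107 and 75 differed by genotype, with 10018 tested. By genotype, 2 pathway genes were called higher and 1 lower. With DESeq2 size factors in edgeR 3 were lower, and likewise with DESeq2's own test. Without the filter 11 were higher and 5 lower, as 410 and 261 of all genes were with 25195 tested. The cause was not tested.

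With the family limited to genes sharing under 10% of their words, Klrd1 held 79.8% of reads in WT unstimulated, 55.1% in Yap KO unstimulated and 11.1% in Yap KO stimulated cells. Klrk1 held 14.0% (WT) and 34.7% (Yap KO) before stimulation and 84.2% (WT) and 80.3% (Yap KO) after it. Klrg1 held 3.08% in Yap KO unstimulated and Klri2 6.94% in Yap KO stimulated cells. Klrc1, Klrc2, Klra3 and Klrb1c are left out of that family. Per kilobase of unshared exon, with all reads kept, Klrc1 stood at 12.9, 70.9, 10.3 and 63.5 CPM. With candidates averaging 5 CPM, 15 of the 24 nearest genes were kept.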

Other observations

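Tbx21 and Eomes were chosen after their values were seen, from a list of 22 tested transcription factors that did not share one pattern. In that list Ikzf2 had ratios of Yap KO over WT of 0.736 before and 0.174 after stimulation, and Id3 of 1.13 and 1.55. Tbx21, the T-bet transcription factor gene, had 17.2 CPM (WT) and 98.2 CPM (Yap KO) before stimulation, and 132 and 134 CPM after it. The ratio of Yap KO over WT was 5.71 (5.13 to 6.36) before and 1.02 (0.964 to 1.07) after stimulation. Eomes, a related T-box factor gene, had ratios of 2.22 (2.08 to 2.38) and 1.31 (1.21 to 1.42). The log2 responses of Yap KO minus WT were -2.48 (-2.65 to -2.31) for Tbx21 and -0.76 (-0.91 to -0.61) for Eomes, beside -1.36 for Klrk1, with intervals that cover counting error only. The genotype term of edgeR's fit called neither after Benjamini-Hochberg adjustment, with adjusted p-values of 0.372 for Tbx21 and 0.0917 for Eomes.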
